A study of Mus musculus with 15 samples.

Results

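Mitochondrial fatty acid oxidation was followed through 10 enzymes and carriers in the podocyte fraction of the mouse kidney: Cpt1a, Slc25a20 and Cpt2 of the carnitine shuttle, the acyl-CoA dehydrogenases Acadvl, Acadl and Acadm, the electron carrier Etfdh, the trifunctional protein subunits Hadha and Hadhb, and the thiolase Acaa2. They were chosen by symbol from this pathway, 10 of the 46078 genes in the count table, and all 10 passed the filter on low counts in every comparison. The study asked how the kidney changes with age and whether blocking the receptor PD-1 alters this. Podocyte fractions were made from digested cortex by magnetic sorting (MACS) on antibodies to Nephrin, a protein of the podocyte slit diaphragm, and their mRNA was sequenced.

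All mice were male C57BL/6J. The young group (n = 5 libraries) was 4 months old and uninjected. The aged IgG2a-injected group (IgG2a, n = 4) was 21 months old at the start and received the isotype control antibody 2A3, and the aged aPD1ab-injected group (aPD1ab, n = 4) of the same age received the anti-PD-1 antibody RMP1-14, both intraperitoneally once a week at 12 mg/kg for 8 weeks. The titles of the aPD1ab samples instead give 47 days of antibody. Since the young mice were not injected, age and injection cannot be told apart in a comparison with them. The labels list 5 mice per group, and 2 further columns of the table could not be tied to a group and were not used. Libraries were numbered in column order within each group, held 19912969 to 32717100 counted reads, and p-values measure the spread between them.

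Fatty acids enter mitochondria as acylcarnitines. Cpt1a, on the outer membrane, makes the acylcarnitine in the rate-controlling step, Slc25a20 carries it across the inner membrane, and Cpt2 turns it back into acyl-CoA. Each turn of beta-oxidation then shortens the chain by an acyl-CoA dehydrogenase, a hydratase, a second dehydrogenase and a thiolase, and Etfdh passes the electrons of the first step to the respiratory chain. In the kidney the proximal tubule is the segment best known for its reliance on this pathway, and podocytes are held to depend on it less.

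The fraction was checked against markers first. All 12 podocyte markers, with Podxl the most abundant, were detected in every library, but their summed level was 1035 to 1613 CPM (reads per library size, TMM-scaled) in young, 589 to 772 in IgG2a and 347 to 960 in aPD1ab mice. The 12 proximal tubule markers, led by the phosphate carrier Slc34a1 and the endocytic receptor Lrp2, summed to 4922 to 8029 CPM in young mice, and the 6 loop of Henle and distal tubule markers, led by Umod and Slc12a3, to 5289 to 12937 over all libraries. The 8 macrophage markers, led by Cd74, which other antigen-presenting cells also express, and Lyz2, summed to 4992 to 8236 CPM in young mice. Nephrin itself (Nphs1) averaged 64.6 CPM in young mice, 8.81 in IgG2a and 27.1 in aPD1ab mice. The summed podocyte markers lay below the summed proximal tubule markers in all 13 libraries. Fewer cells of a type and less RNA per cell cannot be told apart in these bulk libraries.

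Libraries that stood apart are named here before the results. In IgG2a replicate 1 the proximal tubule markers summed to 3719 CPM and the macrophage markers to 6110 CPM, whereas in IgG2a replicates 2 to 4 they lay at 709 to 1148 and at 15209 to 17866 CPM. Among the aPD1ab mice, replicate 2 held the most proximal tubule marker signal of all libraries (11504 CPM) and the least podocyte signal (347 CPM). Results are given over all mapped libraries first and without IgG2a replicate 1 second. IgG2a replicate 1 was singled out from these same data, so p-values without it are a description and not an unselected test.

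Start regions are shown for Cpt2 and Acadm, which had the largest differences between IgG2a and young mice, and for the stretch between Hadha and Hadhb, whose products form 1 enzyme. RefSeq start windows (GRCm38.p6, 250 bases before to 50 after the start) were found for 9 of the 10 genes, and only bases outside GENCODE M21 genes are printed, 5′ to 3′ along the gene. Capitals mark exact matches to the motifs searched, a GC box (GGGCGG) or a nuclear receptor half-site (AGGTCA or its reverse complement). The windows lie at chr4:107923611-107923839 (minus strand) for Cpt2, chr3:153944644-153944893 (minus strand) for Acadm and chr5:30155163-30155247 (plus strand) for Hadhb.
Cpt2: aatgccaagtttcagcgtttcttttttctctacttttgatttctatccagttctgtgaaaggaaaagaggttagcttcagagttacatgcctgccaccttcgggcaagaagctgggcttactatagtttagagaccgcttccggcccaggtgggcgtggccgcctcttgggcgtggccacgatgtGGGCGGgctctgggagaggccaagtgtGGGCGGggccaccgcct
Acadm: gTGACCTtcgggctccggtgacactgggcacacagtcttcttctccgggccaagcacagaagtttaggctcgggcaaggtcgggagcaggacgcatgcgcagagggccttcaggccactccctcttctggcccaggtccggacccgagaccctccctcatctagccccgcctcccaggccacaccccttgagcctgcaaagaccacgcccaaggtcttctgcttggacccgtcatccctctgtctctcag
Hadhb: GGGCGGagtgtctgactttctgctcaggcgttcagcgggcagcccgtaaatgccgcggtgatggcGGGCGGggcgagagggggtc
The Hadha and Hadhb genes lie head to head on chromosome 5, with 272 bases between their RefSeq start sites, and their windows share 228 bases. On both strands, the GC box was found in 7 of the 9 windows against 35.7% of 32851 RefSeq windows, with no match in the Acadm and Acadvl windows. The only GC box of the Hadha window lies in the shared bases and is also a GC box of the Hadhb window, so the same site is counted for both genes. The half-site was found in 3 of the 9 (Cpt1a, Acadm and Acadvl) against 16.3%. The CCAAT box (CCAAT) was found in 2 of the 9, Cpt1a and Etfdh, against 37.4%. An exact direct repeat of 2 half-sites with 1 base between (which contains the half-site), the element type bound by PPAR with RXR, was in 0 of the 9 and in 0.0396% of all windows. The ERR response element (TCAAGGTCA, which also contains the half-site) was in 0 of the 9 and in 0.423%.

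Levels between genes were compared as CPM per kb of exon. In young mice the thiolase Acaa2 was highest at 80.8 ± 9.70 CPM per kb (SD, n = 5), followed by Acadl at 75.2 ± 6.10 and Acadm at 68.7 ± 4.36. These neighbours overlapped in range, although Acadl was above Acadm in 5 of 5 libraries. Cpt1a at 56.3 ± 4.05 CPM per kb lay below every Acadm value and above every Acadvl value. Acadvl (32.6 ± 2.70), Hadhb (28.2 ± 3.73), Cpt2 (25.0 ± 2.86) and Hadha (20.6 ± 1.55) formed a run in which each range overlapped the next. Etfdh followed at 15.3 ± 0.896 CPM per kb, and the carrier Slc25a20 was lowest at 6.83 ± 0.817, both without overlap with the gene above. The exon length is the union over annotated transcripts, from 1516 bases for Acaa2 to 8730 bases for Hadha. It is also long for Cpt1a (7642 bases), Etfdh (7505 bases), Hadhb (6595 bases) and Slc25a20 (4844 bases). A longer union lowers the per-kb value.

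**Figure D1:**
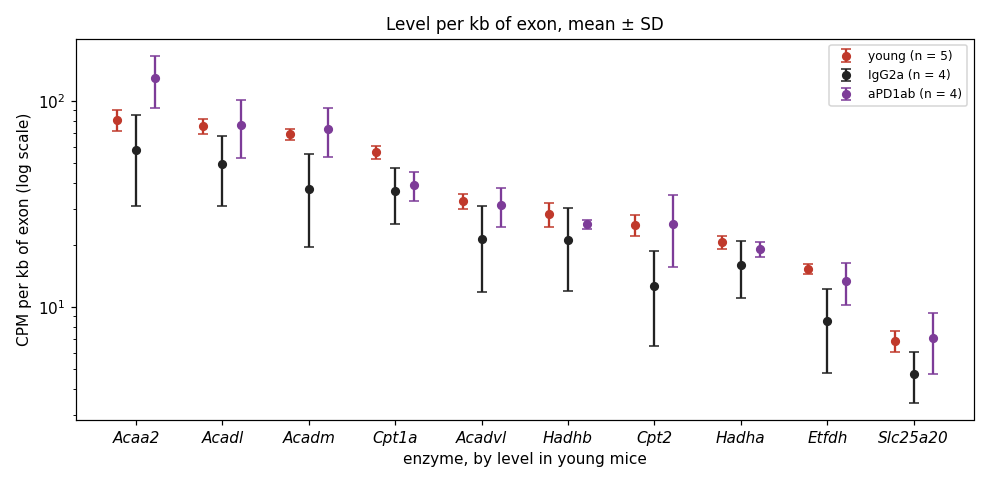
Level of each enzyme as CPM per kb of exon (y axis, log scale) in young (n = 5), aged IgG2a (n = 4) and aged aPD1ab (n = 4) mice, ordered by the level in young mice, with points for means and bars for SD. Acaa2 had the highest mean and Slc25a20 the lowest in each group, and the IgG2a means lay below the young means for all 10 enzymes.

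In IgG2a mice the order of the means kept Acaa2, Acadl and Acadm at the top and Etfdh and Slc25a20 at the bottom, although Acadm was above Cpt1a in 1 of 4 libraries. Cpt2 (12.6 ± 6.10 CPM per kb, SD, n = 4) came below Hadha (16.02 ± 4.94), in 4 of 4 libraries. In aPD1ab mice Acaa2 stood at 129 ± 35.9 CPM per kb (SD, n = 4) and Acadl at 76.6 ± 23.9, with Acaa2 above Acadl in 4 of 4 libraries. Cpt1a was at 39.0 ± 6.33 CPM per kb in aPD1ab mice and at 36.3 ± 11.1 in IgG2a mice.

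The first comparison, IgG2a against young, addresses age together with injection. All 10 enzymes were lower on average in IgG2a mice, and 3 of them fell at an adjusted p under 0.05 (edgeR quasi-likelihood test, Benjamini-Hochberg adjustment over 15953 genes): Cpt2, Acadm and Etfdh. Over all genes tested 8.38% fell by the same rule. The median log2 fold change of the 10 was -0.56, beside 0.04 over all genes tested. None of the 10 fell by more than 2-fold with all libraries. Of all genes tested 8.48% had an adjusted p under 0.05 and changed by more than 2-fold in either direction. The 3 calls were lost when any young library, or IgG2a replicate 2, 3 or 4, was left out, which gave 0 in each case, beside 3.4% to 9.54% of all genes called in either direction. In those 8 fits all 10 enzymes stayed lower, with a median between -0.59 and -0.46. Without IgG2a replicate 1 all 10 fell, beside 23.5% of all genes, with a median of -0.84 beside -0.01 over all genes. Cpt2, Acadm and Etfdh then fell by more than 2-fold, beside 17.1% of all genes called and over 2-fold in either direction. With all libraries DESeq2 called 6 lower, beside 13.6% of all genes, and limma voom with sample quality weights 10, beside 22.2%.

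Of the carnitine shuttle, Cpt2 passed the threshold with all libraries. Cpt1a (chromosome 19, 3322334 to 3385733, plus strand; positions are of GENCODE M21 on GRCm38) stood at 443, 445, 424, 459 and 379 CPM in the young libraries, at 404, 227, 245 and 234 in IgG2a and at 338, 332, 289 and 233 in aPD1ab. IgG2a replicate 1 lay inside the young range and the other 3 IgG2a libraries below it, and all 4 aPD1ab libraries lay below all young libraries. The log2 fold change of IgG2a against young was -0.57 (SE 0.18, edgeR adjusted p = 0.0562), and -0.81 (SE 0.10, edgeR adjusted p = 1.4e-04) without IgG2a replicate 1. Here SE is the size of the log2 fold change divided by the square root of the quasi-likelihood F statistic.

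Cpt2 (chromosome 4, 107903981 to 107923610, minus strand) read 62.8, 58.9, 67.5, 49.0 and 61.1 CPM in young mice. In IgG2a mice it read 51.9, 22.3, 23.9 and 22.3 CPM, and in aPD1ab mice 48.3, 94.1, 56.1 and 43.0. 3 of the 4 IgG2a libraries were thus at less than the lowest young value, and the highest of all values was that of aPD1ab replicate 2. Against young mice IgG2a fell by 0.93 on the log2 scale (SE 0.24, edgeR adjusted p = 0.0319), and by 1.34 (SE 0.11, edgeR adjusted p = 1.0e-05) without IgG2a replicate 1, a 2.52-fold lower level. The carrier Slc25a20 (chromosome 9, 108662088 to 108684641, plus strand), the least abundant of the 10, ranged from 27.6 to 37.2 CPM in young mice and from 19.5 to 20.3 in IgG2a replicates 2 to 4, with 32.4 in replicate 1. Its log2 fold change was -0.47 (SE 0.16, edgeR adjusted p = 0.0705) with all libraries and -0.69 (SE 0.11, edgeR adjusted p = 6.5e-04) without replicate 1.

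**Figure D2:**
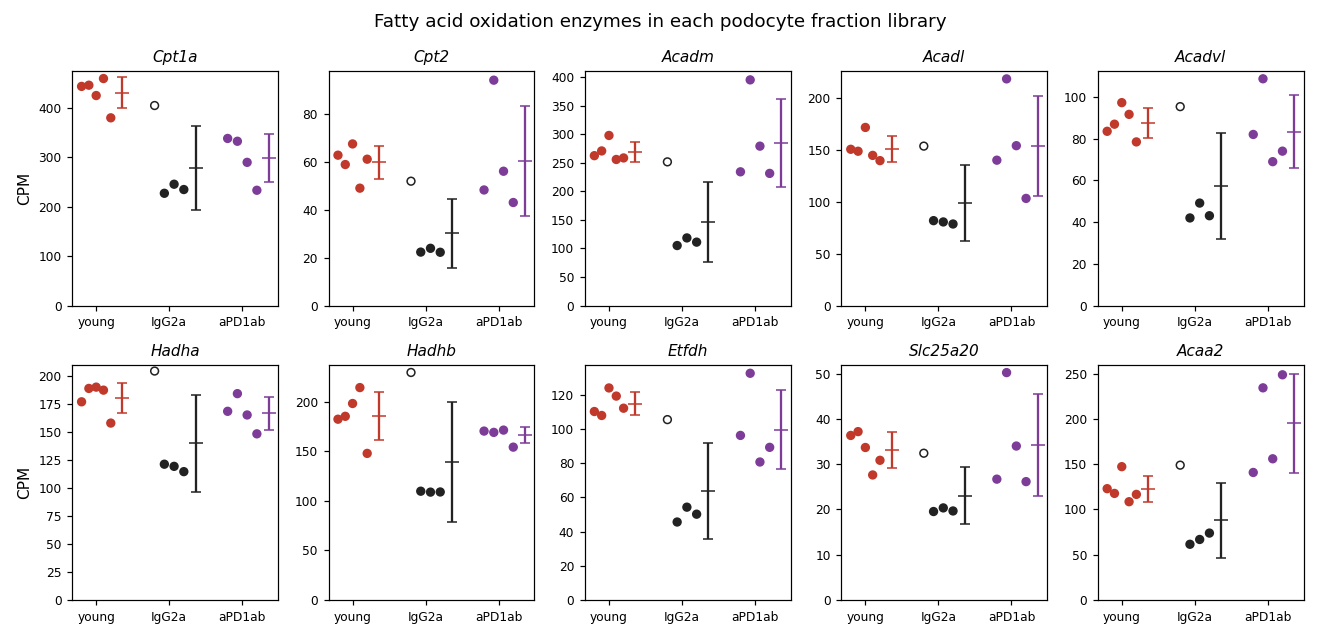
CPM (y axis, linear, from 0) of each of the 10 enzymes in every library of young (n = 5), aged IgG2a (n = 4) and aged aPD1ab (n = 4) mice, 1 point per library, with the mean and SD beside each group and IgG2a replicate 1 as an open circle. In each panel the 3 filled IgG2a points lie together below all young points, and the open circle lies well above them.

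Among the acyl-CoA dehydrogenases, which differ in the chain length they prefer, the medium-chain enzyme Acadm (chromosome 3, 153922357 to 153944632, minus strand) had the largest difference. It stood at 262, 271, 298, 256 and 258 CPM in young mice, at 251.5, 105, 118 and 111 in IgG2a and at 234, 395, 279 and 231 in aPD1ab. IgG2a replicate 1 was just under the lowest young value, and replicates 2 to 4 did not reach 120. That gave a log2 fold change of -0.82 (SE 0.24, edgeR adjusted p = 0.0451) with all libraries and -1.22 (SE 0.10, edgeR adjusted p = 8.1e-06) without replicate 1. The long-chain enzyme Acadl (chromosome 1, 66830839 to 66863277, minus strand) was at 139 to 171 CPM in young mice, at 153 in IgG2a replicate 1 and at 78.4 to 81.7 in the others, with a log2 fold change of -0.56 (SE 0.20, edgeR adjusted p = 0.0745) and, without replicate 1, of -0.86 (SE 0.09, edgeR adjusted p = 5.1e-05). The very-long-chain enzyme Acadvl (chromosome 11, 70010183 to 70015411, minus strand) was at 78.4 to 97.3 CPM in young mice, at 95.3 in replicate 1 and at 42.0 to 49.1 in the others, with a log2 fold change of -0.55 (SE 0.22, edgeR adjusted p = 0.107) and of -0.91 (SE 0.10, edgeR adjusted p = 5.0e-05) without replicate 1. Whether reads were counted by strand is not given in the sources used here, and Acadvl overlaps Dvl2 on the other strand over 2119 bases, so their reads may not be separable. Dvl2 held 4903 counts over all libraries together.

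Etfdh (chromosome 3, 79603788 to 79629500, minus strand), the ubiquinone oxidoreductase that receives the electrons of these dehydrogenases from the carrier ETF, stood at 110, 108, 124, 119 and 112 CPM in young mice, at 106, 45.6, 54.3 and 50.2 in IgG2a and at 96.3, 133, 80.8 and 89.4 in aPD1ab. All IgG2a values were below all young values, replicate 1 by the least. Its log2 fold change was -0.79 (SE 0.22, edgeR adjusted p = 0.0380), and -1.15 (SE 0.09, edgeR adjusted p = 8.2e-06) without replicate 1. With Acadm it was 1 of the 2 enzymes whose IgG2a and young libraries did not overlap with all libraries included, beside 9.74% of all genes lower without overlap. Without replicate 1 all 10 did not overlap, beside 27.4% of all genes.

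With all libraries the trifunctional protein subunits and the thiolase did not pass the threshold. Hadha (chromosome 5, 30118304 to 30155162, minus strand) stood at 177, 189, 190, 187 and 158 CPM in young mice and at 204, 121, 119 and 115 in IgG2a, and its partner Hadhb (chromosome 5, 30155248 to 30184593, plus strand) at 183, 186, 199, 215 and 148 in young mice and at 230, 110, 109 and 109 in IgG2a. IgG2a replicate 1 exceeded every young library for both subunits. The ratio of Hadha to Hadhb CPM stayed between 0.873 and 1.10 in all 13 libraries. The log2 fold changes were -0.31 for Hadha and -0.36 for Hadhb (edgeR adjusted p = 0.228 and 0.291), and -0.55 and -0.71 (edgeR adjusted p = 8.0e-04 and 7.3e-04) without replicate 1.

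Acaa2 (chromosome 18, 74779197 to 74806208, plus strand), which releases acetyl-CoA at the end of each turn, stood at 123, 118, 147, 108 and 117 CPM in young mice, at 149, 61.4, 66.7 and 73.7 in IgG2a and at 141, 234, 156 and 249 in aPD1ab. IgG2a replicate 1 was above every young library, and 3 aPD1ab libraries were above the highest young value. Against young mice the log2 fold change of IgG2a was -0.43 (SE 0.24, edgeR adjusted p = 0.228), and -0.81 (SE 0.11, edgeR adjusted p = 2.5e-04) without replicate 1.

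**Figure D3:**
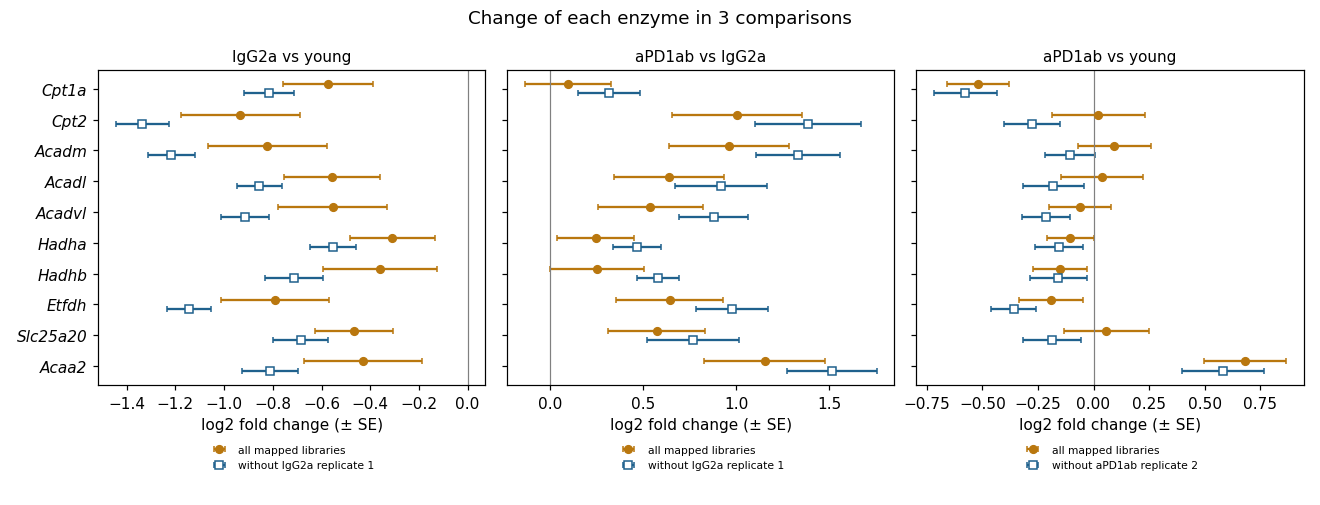
Log2 fold change (x axis, with SE as bars) of each enzyme in IgG2a vs young, aPD1ab vs IgG2a and aPD1ab vs young, with all mapped libraries (filled circles) and without IgG2a replicate 1 or, in the third panel, without aPD1ab replicate 2 (open squares). Leaving out IgG2a replicate 1 moved all 10 enzymes away from 0 in the first and second panels, and in the third panel Cpt1a lay on the negative and Acaa2 on the positive side in both.

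The second comparison, aPD1ab against IgG2a, asks what the antibody did at the same age. All 10 enzymes were higher on average in aPD1ab mice, with a median log2 fold change of 0.61 beside -0.01 over all genes tested, but with all libraries 0 of the 10 passed an adjusted p of 0.05 in edgeR, as did 0% of the 15530 genes tested. At an unadjusted p under 0.05 there were 3 (Cpt2, Acadm and Acaa2), beside 28% of all genes. DESeq2 called 3 higher (8.95% of all genes), limma voom with sample quality weights 9 (20.9%), and an edgeR fit of all 3 groups together 3 (11.4%). The groups overlapped for all 10, while 7.25% of all genes were higher without overlap.

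Without IgG2a replicate 1, 9 of the 10 rose with aPD1ab, beside 17.1% of all genes, with a median log2 fold change of 0.90 beside 0.01 over all genes, and those 9 had no overlap between groups, beside 24.8% of all genes. Leaving out any other single library gave 0 in edgeR, beside 0% of all genes each time, with a median of the 10 from 0.39 (without aPD1ab replicate 2) to 0.69. Without aPD1ab replicate 2 as well, 9 rose, beside 15.6% of all genes. Acaa2 changed most, from 67.3 ± 6.20 CPM (SD, n = 3) to 195 ± 54.5 (SD, n = 4), a log2 fold change of 1.52 (SE 0.24, edgeR adjusted p = 0.00752). With replicate 1 in the group it was 1.15 (edgeR adjusted p = 0.109). Cpt2 went from 22.8 ± 0.938 CPM (n = 3) to 60.4 ± 23.1 (n = 4), by 1.39 (SE 0.28, edgeR adjusted p = 0.0122), and Acadm from 111 ± 6.68 to 285 ± 76.6, by 1.34 (SE 0.23, edgeR adjusted p = 0.00777).

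Smaller rises were those of Etfdh (0.98), Acadl (0.92), Acadvl (0.88), Slc25a20 (0.77), Hadhb (0.58) and Hadha (0.47), as log2 fold changes without IgG2a replicate 1, with edgeR adjusted p of 0.0100 to 0.0469. For Hadhb the groups were tight, at 109 ± 0.496 CPM in the 3 IgG2a and at 167 ± 8.12 in the 4 aPD1ab libraries. Cpt1a was the only enzyme of the 10 not called, with a log2 fold change of 0.32 (SE 0.17, edgeR adjusted p = 0.179) without replicate 1 and of 0.10 (SE 0.23, edgeR adjusted p = 0.811) with it. Its level was 235 ± 9.20 CPM in those 3 IgG2a and 298 ± 48.4 in the 4 aPD1ab libraries, and aPD1ab replicate 4, at 233 CPM, lay within the range of IgG2a replicates 2 to 4. That Cpt1a changed less than the other 9 was not tested.

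The third comparison, aPD1ab against young, shares the aPD1ab libraries with the second and the young libraries with the first, so the 3 sets of values are not independent. With all libraries 8 of the 10 enzymes did not pass an adjusted p of 0.05, with log2 fold changes from -0.19 for Etfdh to 0.09 for Acadm. 2 passed, beside 22.4% of all genes, in opposite directions. Cpt1a was lower in aPD1ab than in young mice, 298 ± 48.4 against 430 ± 30.9 CPM (SD, n = 4 and n = 5), with a log2 fold change of -0.52 (SE 0.14, edgeR adjusted p = 0.0232) and no overlap between the groups, as for 10.6% of all genes. Acaa2 was higher, 195 ± 54.5 against 122 ± 14.7 CPM, with a log2 fold change of 0.68 (SE 0.18, edgeR adjusted p = 0.0243), although aPD1ab replicate 1 (141 CPM) was below the highest young library (147 CPM). Both calls were lost without young replicate 1, young replicate 2 or aPD1ab replicate 4, and 1 was left without young replicate 4 or young replicate 5. A fit of all 3 groups called neither, beside 17.8% of all genes.

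aPD1ab replicate 2 exceeded all young libraries in 7 of the 10 enzymes. Without it, Etfdh also fell against young mice (-0.36, SE 0.10, edgeR adjusted p = 0.0304), Cpt1a stood at -0.58 and Acaa2 at 0.58 (edgeR adjusted p = 0.0183 and 0.0443), which makes 3 enzymes called beside 22.5% of all genes. The log2 fold changes of Cpt2, Acadm, Acadl and Slc25a20 then turned negative, at -0.28, -0.11, -0.18 and -0.19, with none past the threshold.

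Proportions within the pathway also differed between libraries. The ratio of Cpt1a to Cpt2 CPM was 7.05, 7.56, 6.29, 9.36 and 6.21 in young mice, 7.78, 10.2, 10.3 and 10.5 in IgG2a and 7.00, 3.53, 5.16 and 5.41 in aPD1ab. IgG2a replicates 2 to 4 were above all other libraries and 3 of the 4 aPD1ab libraries were below all of them. The ratio of Acaa2 to Hadhb CPM was 0.505 to 0.787 in young mice, 0.559 to 0.676 in IgG2a and 0.825, 1.38, 0.908 and 1.61 in aPD1ab, so that all aPD1ab libraries were above all others. Both ratios were chosen after their values were seen and are given without a test.

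The enzymes and the proximal tubule markers were both lowest in IgG2a replicates 2 to 4. Among the other libraries their order was mixed. aPD1ab replicate 2 was highest in both, but aPD1ab replicate 4 had 6645 CPM of markers and the lowest enzyme sum among them (1351). IgG2a replicate 1 had 3719 CPM of markers and 1677 of enzymes. Summed over the 10 enzymes, CPM was 1482 to 1752 in young mice, 1677 in IgG2a replicate 1, 835 to 886 in IgG2a replicates 2 to 4 and 1351 to 1919 in aPD1ab mice. The 12 proximal tubule markers, none at 0 in any library, summed to 4922 to 8029 CPM in young mice, 3719 and then 709 to 1148 in the same IgG2a libraries, and 3681 to 11504 in aPD1ab mice. The 8 macrophage markers, none at 0, went the other way, with 15209 to 17866 CPM in IgG2a replicates 2 to 4 and at most 12259 elsewhere. Per CPM of proximal tubule marker, the enzymes came to 0.218 to 0.337 CPM in young mice, 0.451 in IgG2a replicate 1, 0.772 to 1.18 in replicates 2 to 4 and 0.167 to 0.395 in aPD1ab mice. Between IgG2a replicates 2 to 4 and the young libraries the markers thus differed by a larger factor than the enzymes did.

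**Figure D4:**
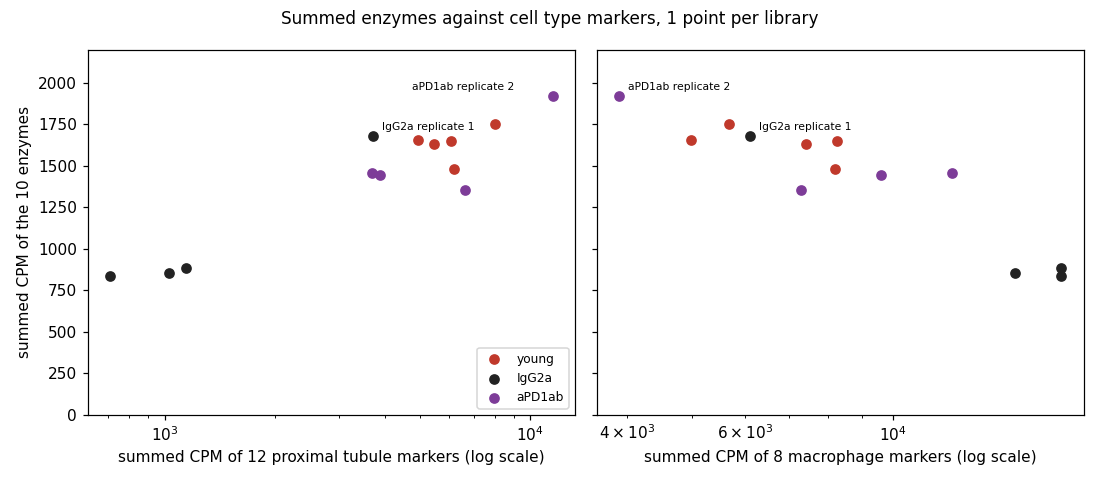
Summed CPM of the 10 enzymes (y axis, linear) against the summed CPM of 12 proximal tubule markers (left, log scale) and of 8 macrophage markers (right, log scale), 1 point per library. IgG2a replicates 2 to 4 sit apart at 835 to 886 CPM of enzymes with the lowest tubule and the highest macrophage marker sums, and IgG2a replicate 1 sits with the young and aPD1ab libraries.

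With the mean log2 CPM of the proximal tubule markers as a covariate, 0 of the 10 enzymes were called between IgG2a and young mice, beside 0.451% of all genes, and all 10 log2 fold changes were positive, from 0.12 for Cpt1a to 0.65 for Acaa2. In the same fit of aPD1ab against IgG2a none was called, beside 0% of all genes, and 7 were negative. The aPD1ab against young calls of Cpt1a and Acaa2 remained with that covariate, beside 31.5% of all genes. With the macrophage markers as the covariate, a fit added after seeing the data, 0 of the 10 were called between IgG2a and young mice, beside 3.58% of all genes. In IgG2a replicates 2 to 4 both marker sums lay outside the range of all other libraries, so group and covariate are hard to separate in the first and second comparisons, and the part of cell composition in them was not tested further.

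**Figure D5:**
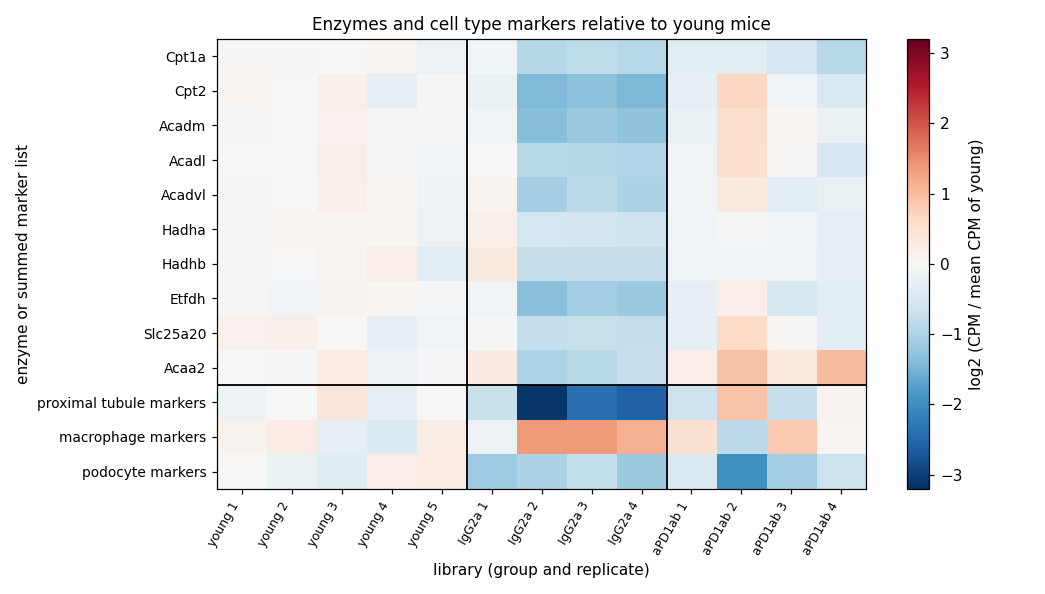
Log2 ratio of each library's CPM to the mean of the young libraries (colour) for the 10 enzymes and for the summed proximal tubule, macrophage and podocyte markers, with libraries in columns and black lines between groups. IgG2a 2, 3 and 4 are low in all 10 enzymes and in proximal tubule markers and high in macrophage markers, and IgG2a 1 differs from them in each of these.

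Genes whose pattern was most like that of the 10 enzymes were found by Pearson's correlation over the 13 libraries of log2 CPM with the mean of the enzymes' z-scores, among 15319 genes. The 10 closest were Slc44a4, Trap1, Agpat3, Pcca, Acat1, Akap1, Adhfe1, Mccc1, Entpd5 and Abcd3, with r from 0.980 to 0.985. Pcca and Mccc1 encode subunits of mitochondrial carboxylases of propionate and leucine breakdown, Trap1 a mitochondrial chaperone, Akap1 a mitochondrial anchor of protein kinase A, and Abcd3 a peroxisomal carrier of fatty acids. Acat1, which splits acetoacetyl-CoA, went with them from 340 CPM in young mice to 197 in IgG2a and 360 in aPD1ab mice. Without the 2 libraries farthest from the median, r was 0.953 to 0.975. The libraries differed in their marker sums, as given above, and the correlations are a description with no test.

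The other mitochondrial beta-oxidation enzymes, a list of 20, went the same way. Between IgG2a and young mice 6 fell and 0 rose, with a median log2 fold change of -0.53, while of all genes tested 8.38% fell and 9.05% rose, the shares against which the counts of the lists below are also to be read. Without IgG2a replicate 1, 18 fell, beside 23.5% of all genes, with a median of -0.87. The short-chain dehydrogenase Acads was at 96.8 to 114 CPM in young mice, 91.1 in IgG2a replicate 1 and 50.01 to 54.9 in the others, a log2 fold change of -0.69 (SE 0.17, edgeR adjusted p = 0.0265). Acad10 (-0.98, edgeR adjusted p = 0.0386), Acad12 (-0.65, edgeR adjusted p = 0.0313) and Acad9 (-0.47, edgeR adjusted p = 0.0301), members of the same dehydrogenase family, fell as well. Acat1 (-0.73, edgeR adjusted p = 0.0748) and the hydroxyacyl-CoA dehydrogenase Hadh (-0.68, edgeR adjusted p = 0.107) did not pass in edgeR with all libraries, and stood at -1.15 and -1.14 (edgeR adjusted p = 1.3e-05 and 1.8e-05) without replicate 1. In aPD1ab against IgG2a mice edgeR called 0 of the 20 with all libraries, beside 0% of all genes. At an unadjusted p under 0.05 there were 16, beside 28% of all genes. DESeq2 called 5 of the 20 higher (8.95% of all genes), limma voom with sample quality weights 17 (20.9%), and the edgeR fit of all 3 groups 12 (11.4%). Without replicate 1, 16 rose, beside 17.1% of all genes, with a median of 1.10 and Hadh at 1.46 (edgeR adjusted p = 0.00650).

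Of the 18 tested genes for fatty acid uptake, binding and activation, 7 fell and 1 rose between IgG2a and young mice. The medium-chain acyl-CoA synthetases Acsm3 (-3.01, edgeR adjusted p = 0.00660), Acsm1 (-2.03, edgeR adjusted p = 0.0154) and Acsm2 (-2.03, edgeR adjusted p = 0.0248) and the transporter Slc27a2 (-1.87, edgeR adjusted p = 0.0313) fell by more than 2-fold. Acsm2 went from 1736 to 2695 CPM in young mice to 1151 in IgG2a replicate 1 and 210 to 301 in the others. The scavenger receptor Cd36, which takes up long-chain fatty acids, was lower in all IgG2a libraries, replicate 1 included (98.5 to 140 CPM against 198 to 244 in young mice, log2 fold change -0.82, SE 0.14, edgeR adjusted p = 0.00974). Cd36 was also lower in aPD1ab than in young mice, at 57.7 to 144 CPM (log2 fold change -1.11, edgeR adjusted p = 0.00803). The fatty acid binding protein Fabp5 rose from 2.95 to 5.31 CPM in young mice to 6.77 to 21.8 in IgG2a (log2 fold change 1.94, edgeR adjusted p = 0.00878) and was higher in aPD1ab than in young mice as well (1.46, edgeR adjusted p = 0.00387). In IgG2a against young mice, 2 to 6 of the 18 fell and 1 rose in the 8 fits given above that each left out 1 library. With the proximal tubule covariate 1 fell and 0 rose.

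Of 17 regulators of the pathway, 4 fell and 1 rose between IgG2a and young mice. Ppara, the nuclear receptor that activates these enzymes in liver and kidney, was at 18.6, 15.8, 22.1, 24.2 and 20.6 CPM in young mice, at 14.2, 3.60, 4.31 and 5.05 in IgG2a and at 9.49, 16.2, 8.68 and 13.9 in aPD1ab. It fell in IgG2a (log2 fold change -1.51, SE 0.37, edgeR adjusted p = 0.0263), rose with aPD1ab against IgG2a without replicate 1 (1.47, SE 0.28, edgeR adjusted p = 0.00956; with it 0.83, edgeR adjusted p = 0.244) and was lower in aPD1ab than in young mice (-0.73, edgeR adjusted p = 0.0264). Pparg, the receptor known from fat cells and macrophages, went the other way: 5.37 to 9.52 CPM in young mice, 8.32 in IgG2a replicate 1, 22.2 to 28.1 in the others and 7.74 to 14.2 in aPD1ab mice. Pparg rose in IgG2a (log2 fold change 1.58, SE 0.32, edgeR adjusted p = 0.0160). Ppard (-0.49), the malonyl-CoA decarboxylase Mlycd (-0.59), which removes the inhibitor of Cpt1a, and the AMP-activated kinase subunit Prkaa2 (-0.99) fell in IgG2a, with edgeR adjusted p of 0.0187, 0.0252 and 0.0450. The receptor partner Rxra was at -0.19 (edgeR adjusted p = 0.230). In IgG2a against young mice, 0 to 2 of the 17 fell and 0 or 1 rose in the 8 fits that each left out 1 library. With the proximal tubule covariate 0 were called.

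Of the 13 tested ketone body enzymes and other PPAR-alpha targets, 3 fell and 2 rose. The peroxisomal bifunctional enzyme Ehhadh (-1.91, edgeR adjusted p = 0.0311) and the lipase inhibitor Angptl4 (-1.69, edgeR adjusted p = 0.0326) fell in IgG2a against young mice. The lipid droplet protein Plin2 rose (1.14, SE 0.27, edgeR adjusted p = 0.0255), from 43.8 to 71.4 CPM in young mice to 80.0 to 207 in IgG2a, and was higher in aPD1ab than in young mice too (0.83, edgeR adjusted p = 0.00832). Ucp2, an inner membrane carrier, rose in IgG2a (0.69, edgeR adjusted p = 0.0458). Of the 13, 0 or 1 fell and 0 or 1 rose in the 8 fits of IgG2a against young mice that each left out 1 library. With the proximal tubule covariate 0 were called.

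In fatty acid synthesis, the opposite pathway, 3 of 10 genes fell and 0 rose between IgG2a and young mice. They were malic enzyme Me1 (-2.05, edgeR adjusted p = 0.0162), the acetyl-CoA synthetase Acss2 (-1.39, edgeR adjusted p = 0.0162) and fatty acid synthase Fasn (-0.45, edgeR adjusted p = 0.0279). Me1 was at 160 to 205 CPM in young mice, at 87.7 in IgG2a replicate 1 and at 17.0 to 29.6 in the others. Acly (-0.22, edgeR adjusted p = 0.156), Scd2 (0.15, edgeR adjusted p = 0.809) and Srebf1 (0.41, edgeR adjusted p = 0.0546) did not pass. In the 8 fits that each left out 1 library, 0 to 3 of the 10 fell and 0 or 1 rose. With the proximal tubule covariate 0 were called. In aPD1ab against IgG2a mice Me1 and Acss2 were called without replicate 1, at 2.48 and 1.74 (edgeR adjusted p = 0.00752 and 0.0107).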

How the data were processed

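The authors deposited 1 table of read counts per Ensembl gene, whole numbers without normalization. The submitters' processing notes name HISAT2, featureCounts and the builds mm10 and GRCm38, and the strand setting is not given in the sources used here. Groups came from the labels. Column headers carry numbers that no label holds, and 13 columns were tied to groups by the numbers that a plot of the study prints beside its podocyte fractions. The other 2 columns were not used. No label says that columns share a batch.

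Symbols and positions are from GENCODE M21 (GRCm38), which matched 45229 of 46078 IDs. Start windows are from RefSeq. Every comparison had its own fit of the libraries of its groups in edgeR 4.0.16 (R 4.3.3; TMM, filterByExpr, robust quasi-likelihood test, Benjamini-Hochberg adjustment over all genes tested, called at 0.05). The procedure was tested on simulated counts in which no library stood apart, so the effect of a library such as IgG2a replicate 1 was not covered. Levels are CPM after TMM scaling. A gene at 3 counts stood at 0.0843 to 0.207 CPM, and the lowest count of the 10 enzymes was 284, in Slc25a20. Depth and floors cover counting error only. No 2 libraries agreed within sampling noise (chi-square per degree of freedom 12.7 to 361).

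Alternatives were other scalings, DESeq2 1.42.0, limma 3.58.1 voom weights, 1 fit of all groups, other filters, marker covariates and each library left out. The macrophage covariate and the joint removal of IgG2a replicate 1 and aPD1ab replicate 2 were chosen after seeing the data. So was the choice to give the fit without IgG2a replicate 1 beside each result. The 10 enzymes, 5 pathway lists and 8 marker lists were chosen with earlier results of these data known. Named genes were the 10 enzymes, from each pathway list the 4 with the smallest p in IgG2a against young and the 2 most abundant, the 2 most abundant of each marker list, and the 10 genes most like the enzymes; Nphs1 was added as the target of the sort. Some single genes that this rule names are not reported here.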

Additional observations from a re-analysis of the deposited data

Results flagged for a closer look

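In groups of 4 or 5 libraries, a library is named here when its gap to the nearest other library exceeded Dixon's 95% critical share of the group's range. Of 30 groups tested (10 enzymes in 3 groups), 11 held such a library, where chance gives about 1 in 20.

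IgG2a replicate 1 was the highest IgG2a library for all 10 enzymes, so these are 1 library and not 10 separate events. It held 404 CPM of Cpt1a against 245 in the next IgG2a library, 51.9 of Cpt2 against 23.9, 32.4 of Slc25a20 against 20.3, and 106 of Etfdh against 54.3. Among the dehydrogenases it held 251.5 CPM of Acadm against 118, 153 of Acadl against 81.7, and 95.3 of Acadvl against 49.1. For Hadha it was 204 CPM against 121, for Hadhb 230 against 110, and for Acaa2 149 against 73.7. Its proximal tubule markers (3719 CPM, at most 1148 in the other IgG2a libraries) and macrophage markers (6110 CPM, at least 15209 in the others) differed in the same library. So did its loop of Henle and distal tubule markers (12937 CPM, at most 6102 in the others) and collecting duct markers (1098 CPM, at most 683). The part of these markers in the result was not tested.

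Hadhb in aPD1ab replicate 4, at 154 CPM, was the lowest aPD1ab value, with the nearest at 169.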

How the results depend on the processing

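The number of enzymes called rested on the libraries and on the test. Percentages here are the shares of all genes tested that were called in either direction. For IgG2a against young (3 called, 17.4%) it was 6 with DESeq2 (27.9%) and 10 with voom weights (46.5%). It was 0 with the proximal tubule (0.451%) and macrophage (3.58%) covariates. Without IgG2a replicate 1 it was 10 (45.6%), and leaving out aPD1ab replicate 2 as well is the same fit here. With any other single library left out it was 0 (3.4% to 9.54%). For aPD1ab against IgG2a (0 called, 0%) it was 3 with DESeq2 (15.3%), 9 with voom weights (39.7%) and 3 in 1 fit of all groups (17.5%). It was 9 without IgG2a replicate 1 and aPD1ab replicate 2 together (28.2%) and 9 without IgG2a replicate 1 alone (30.4%). With any other single library left out it was 0 (0%). For aPD1ab against young (2 called, 22.4%) it was 0 in 1 fit of all groups (17.8%) and 0 to 3 with single libraries left out (14.6% to 23.8%). Other scalings, filters and the removal of mitochondrially encoded genes gave 2 or 3, 0 and 2 calls in these comparisons. The share over all genes was not computed for these settings. The cause was not tested.

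Some log2 fold changes turned sign. With the proximal tubule covariate, IgG2a against young came to 0.12 for Cpt1a, 0.20 for Cpt2, 0.29 for Acadm, 0.32 for Acadl, 0.48 for Acadvl, 0.41 for Hadha, 0.58 for Hadhb, 0.21 for Etfdh, 0.22 for Slc25a20 and 0.65 for Acaa2, and aPD1ab against IgG2a to -0.40 for Cpt1a, -0.10 for Acadl, -0.31 for Acadvl, -0.25 for Hadha, -0.33 for Hadhb, -0.22 for Etfdh and -0.12 for Slc25a20. With the macrophage covariate they were 0.0125 for Hadhb in the first and -0.11 for Cpt1a in the second, where Cpt1a ran from -0.0121 (without IgG2a replicate 2) to 0.32 with single libraries left out. In aPD1ab against young, voom weights gave -0.25 for Cpt2, -0.0468 for Acadm, -0.17 for Acadl and -0.20 for Slc25a20, the tubule covariate 0.0789 for Acadvl and the macrophage covariate -0.0011 for Cpt2. With single libraries left out of that comparison, Cpt2 ran from -0.28 to 0.15, Acadm from -0.11 to 0.18, Acadl from -0.18 to 0.19, Acadvl from -0.21 to 0.0195 and Slc25a20 from -0.19 to 0.17. The lowest of each was without aPD1ab replicate 2, also when IgG2a replicate 1, which is not in that fit, was left out with it. Scaling by total count in place of TMM put the young means higher by more than 1 SD for 6 enzymes, such as Cpt1a at 479 CPM. No paired analysis was possible because the columns carry no replicate number shared between groups.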

Other observations

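Markers of the remaining cell types were summed as well. Endothelial markers, 7 genes led by Kdr and Ehd3, came to 694 to 1043 CPM in young, 527 to 658 in IgG2a and 329 to 901 in aPD1ab mice. Collecting duct markers, led by Aqp2 and Hsd11b2, came to 465 to 1218, 562.3 to 1098 and 695 to 1139 CPM, mesangial and pericyte markers, led by Itga8 and Myh11, to 234 to 311, 98.8 to 154 and 105 to 166 CPM, and T and B lymphocyte markers, led by Cd79a and Cd79b, to 35.8 to 102, 37.3 to 183 and 26.7 to 91.9 CPM in the same order. Of the lymphocyte markers 1, Cd3g, was at 0 in 1 library.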
